A study of Mus musculus with 24 samples.

Results

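This account covers 10 genes of bone morphogenetic protein (BMP) signalling in otocyst epithelium of the mouse, the otocyst being the vesicle that forms the inner ear. They are the ligand genes Bmp2, Bmp4 and Bmp7, the secreted modulator Bmper, the target genes Id1, Id2, Id3 and Id4, and the inhibitory SMAD genes Smad6 and Smad7. The genes were chosen by their place in the pathway, with earlier results of these data known. All 10 had a row among the 15736 genes of the count table. The question was whether ligands, modulator and targets move together when signalling through the fibroblast growth factor (FGF) receptor FGFR2b is blocked.

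Controls (con) carried Rosa26rtTA/+, a doxycycline-dependent activator expressed from the ubiquitous Rosa26 locus. Experimental embryos (R2b) had the genotype Rosa26rtTA/+;Tg(tetO-s(dn)Fgfr2b)/+, so that doxycycline switched on a soluble, dominant-negative form of FGFR2b that binds FGF ligands outside the cell. Pregnant females of both groups received doxycycline, at 1.5 mg/kg by injection followed by chow with 200 mg/kg, so the drug is shared by con and R2b. Doxycycline was given from E9.75 for 12 hours (E9.75+12h, the short exposure), from E9.25 for 24 hours (E9.25+24h, the long exposure) or from E10.25 for 24 hours (E10.25+24h, the late exposure), and embryos were taken at E10.25, E10.25 and E11.25. Each library is a pool of otocyst epithelium from the embryos of 1 genotype in 1 litter, and each litter gave 1 pool of each genotype. Counts were used from 3 litters at the short exposure and from 4 litters each at the long and late ones, which makes 22 libraries of 24 samples. Sample titles carry a different number prefix in each exposure, with no meaning given, and levels are compared only within an exposure.

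BMP ligands bind pairs of serine/threonine kinase receptors, which phosphorylate SMAD1, SMAD5 and SMAD9. These join SMAD4 and activate genes that include the Id genes and the inhibitory SMADs, whose products in turn limit the pathway. Outside the cell, secreted proteins such as noggin, chordin and BMPER (a chordin-related protein with von Willebrand factor C domains that binds BMPs and can dampen or promote signalling) set how much ligand reaches the receptors. In the otocyst, BMP4 marks prospective sensory patches and takes part in forming the semicircular canals, and FGF3 and FGF10 are ligands of FGFR2b.

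The stretches before the start sites are shown for the members that passed the test or belong to the ligand and target arms, as far as RefSeq's table holds them outside the annotated gene body. RefSeq (GRCm38.p6) had a promoter entry for 6 of the 10 members. The missing ones were Bmp2, Bmp7, Id1 and Smad7. The windows of Id2 and Id3 overlapped the gene body in GENCODE M21 and are not printed. Each of the 4 printed windows is the 250 bases before the start site, read 5′ to 3′ on the gene's strand. Capitals mark every match, on either strand, to GGCGCC (a GC-rich element that SMAD1 and SMAD5 can bind), GTCT (the short SMAD-binding box) or CCGGAA (the core bound by ETS factors, which act downstream of FGF receptors). Positions were chr14:46390670-46390919, minus strand, for Bmp4, chr9:23222826-23223075, plus strand, for Bmper, chr13:48260866-48261115, plus strand, for Id4, and chr9:64022060-64022309, minus strand, for Smad6.
Bmp4: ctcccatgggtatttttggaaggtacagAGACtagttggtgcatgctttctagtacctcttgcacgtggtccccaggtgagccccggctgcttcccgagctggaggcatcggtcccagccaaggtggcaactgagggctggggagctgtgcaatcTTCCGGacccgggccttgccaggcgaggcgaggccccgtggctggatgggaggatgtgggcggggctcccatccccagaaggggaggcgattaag
Bmper: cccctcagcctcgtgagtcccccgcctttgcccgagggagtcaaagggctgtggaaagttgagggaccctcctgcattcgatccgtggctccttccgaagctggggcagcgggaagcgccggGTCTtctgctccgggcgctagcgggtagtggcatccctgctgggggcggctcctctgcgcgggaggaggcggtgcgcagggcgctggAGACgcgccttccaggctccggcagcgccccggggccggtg
Id4: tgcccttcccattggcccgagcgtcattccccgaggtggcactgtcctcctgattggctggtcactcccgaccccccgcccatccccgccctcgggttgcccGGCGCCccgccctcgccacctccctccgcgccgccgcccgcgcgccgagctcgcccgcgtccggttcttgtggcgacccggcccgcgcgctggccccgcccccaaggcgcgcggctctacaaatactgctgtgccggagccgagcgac
Smad6: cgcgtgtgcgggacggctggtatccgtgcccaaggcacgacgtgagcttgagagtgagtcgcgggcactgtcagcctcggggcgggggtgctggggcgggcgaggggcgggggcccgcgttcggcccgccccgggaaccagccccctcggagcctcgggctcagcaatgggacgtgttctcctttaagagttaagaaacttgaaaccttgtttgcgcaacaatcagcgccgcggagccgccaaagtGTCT

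Bmper held 2 GTCT boxes, 128 and 41 bases before its start, and neither of the other motifs. Bmp4 held 1 GTCT, 222 bases before the start, and 1 CCGGAA, 95 bases before it. Id4 held 1 GGCGCC, 148 bases before its start, and Smad6 held 1 GTCT, ending at the last base printed and starting 4 bases before the start site. Among 32851 promoter windows of the same length, 82.9% held GTCT, 12% held CCGGAA and 9.59% held GGCGCC. The boxes in Bmper and Smad6 are thus of a kind that most promoters hold, and a match is a description of the letters only.

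Libraries held 18.7 to 28.2 M counts, and the mitochondrial share was 4.00% to 6.69% at the short exposure, 1.53% to 1.70% at the long exposure and 1.88% to 2.85% at the late exposure. Reads of the transgene, a fusion of FGFR2b's ligand-binding part with the constant part of an immunoglobulin, count towards Fgfr2 and Ighg1. Ighg1 stood at 0.958 to 1.90 CPM (counts per M counts after TMM scaling, by the trimmed mean of M-values) in con and 1001 to 2979 CPM in R2b after the short exposure. In long-exposure pools the ranges were 0.0479 to 0.248 CPM in con and 1229 to 1892 CPM in R2b, so the labels of both exposures matched the transgene. The late exposure did not match throughout: litters 1 to 4 had 703, 1.45, 206 and 0.758 CPM of Ighg1 in the libraries labelled con, and 56.3, 1186, 845 and 859 CPM in those with the label R2b. The library labelled con of litter 1 thus had more Ighg1 than the one labelled R2b, and the library labelled con of litter 3 had many such reads too. No label was changed, and the members' fold changes of that exposure are given with all libraries, without litter 1, and without the 3 libraries in question.

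All 12 markers of otic epithelium were above 0 in every library, with a summed level of 2321 to 8076 CPM. Mesenchyme markers summed to 88.3 to 1414 CPM and endothelial markers to 15.8 to 308 CPM. Both long-exposure pools of litter 4 were the highest in mesenchyme (1414 CPM in con and 1298 CPM in R2b), so both genotypes of that litter were high. None of 12 mesenchyme markers was called in either direction by edgeR at the short or long exposure, and of the endothelial markers only Tek was, at the short exposure (log2 fold change -1.41, FDR 0.0158). Of 8 blood markers tested at these exposures none was called, with summed levels of 9.82 to 5133 CPM over all libraries. With the litter as a block, edgeR called 1 mesenchyme marker (Prrx2, FDR 0.00158), 3 endothelial markers (Tek, Kdr and Cldn5, FDR 1.96e-05, 0.0218 and 0.0124) and 2 blood markers (Hba-x and Slc4a1, FDR 0.0426 and 0.0376) at the long exposure, all 6 lower in R2b. Of all genes, 40.6% were called with the block at the long exposure, and 20% and 15.6% without it at the short and long exposures. The median log2 fold change there was -0.83 over 12 endothelial and -0.97 over 8 blood markers.

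In con epithelium, levels per kb of annotated exon (GENCODE M21) set the members in a clear order. Id1, Id2 and Id3 stood highest, at 66.3 ± 2.1, 103 ± 10.5 and 56.6 ± 5.23 CPM per kb (SD, n = 3) at the short exposure. Bmp7 followed at 40 ± 2.31 and Bmp4 at 18.0 ± 3.78 CPM per kb. Bmper at 10.8 ± 1.17, Id4 at 9.14 ± 0.200, Smad6 at 7.06 ± 1.10 and Smad7 at 5.18 ± 0.258 CPM per kb came next, and Bmp2 was last at 0.868 ± 0.302 CPM per kb. The mean ± SD ranges of neighbours in this order did not overlap. The same 3 Id genes led at the long exposure (Id3 121 ± 2.30, Id1 107 ± 12.4 and Id2 95.8 ± 6.42 CPM per kb, SD, n = 4) and among the libraries labelled con at the late exposure (Id3 116 ± 14.4, Id2 96.3 ± 6.59 and Id1 87.8 ± 17.2 CPM per kb, SD, n = 4). Bmp2 was the lowest member at every exposure, at 0.610 ± 0.0889 and 1.49 ± 0.431 CPM per kb in these. At the long exposure the ranges of Id3 with Id1, Id1 with Id2, Bmper with Smad6 and Id4 with Smad7 overlapped, and at the late exposure those of Id3 with Id2, Id2 with Id1, Bmper with Bmp4 and Smad6 with Id4.

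**Figure D1:**
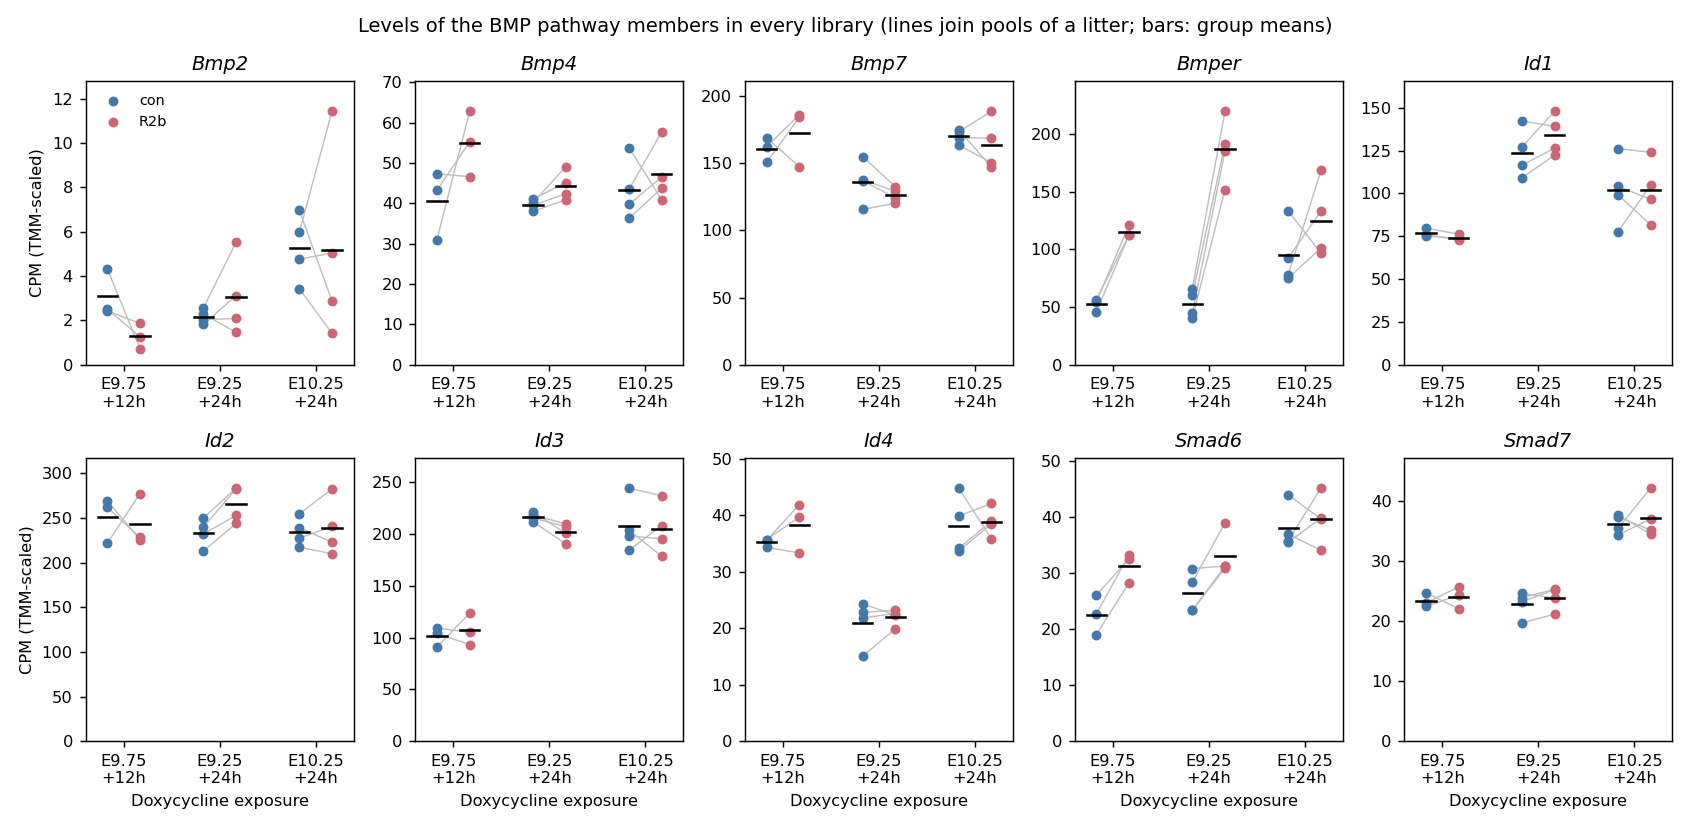
TMM-scaled CPM (vertical axes, linear from 0) of the 10 members in all 22 libraries at the 3 exposures, with points for con (blue) and R2b (red) pools, grey lines joining the pools of a litter and bars at group means. Bmper in R2b lies above con in all 7 litters of the short and long exposures, while the points of the Id genes intermix or lie close together.

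Ligands, modulator and targets did not all change in 1 direction, and their joint movement was not itself tested. In short-exposure pools, Bmper and Smad6 rose and Bmp2 fell in R2b, and the other 7 members did not pass the test (edgeR's quasi-likelihood test, Benjamini-Hochberg adjusted p, here FDR, under 0.05). In long-exposure pools, Bmper alone passed the test. In late-exposure pools none of the 10 did, and none had an unadjusted p under 0.05. The 2 rises and 1 fall at the short exposure stand beside 20% of 14882 genes called in that comparison, 10.20% higher and 9.78% lower in R2b. The single rise at the long exposure stands beside 15.6% of 14979 genes called, 9.09% higher and 6.5% lower. In bulk RNA, fewer cells of a type and less RNA per cell cannot be told apart. The members' median log2 fold change (R2b minus con) was 0.09, 0.14 and 0.03 at the short, long and late exposures, against 0.01, -0.01 and 0.00 over all genes tested.

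With the litter as a block in the fit, since the pools of a litter share a dam, 1 member (Bmper) was called at the short exposure and 5 at the long exposure (Bmper, Bmp4, Id2 and Smad6 higher, Id3 lower). The share of all genes called moved the same way, to 11.9% at the short exposure and 40.6% at the long exposure. Groups did not overlap in CPM for 3 members at the short exposure (Bmp2, Bmper and Smad6), beside 38.9% of all genes tested. After the long exposure they did not overlap for Bmper, Smad6 and Id3, beside 22.4%, and at the late exposure for no member, beside 0.914%.

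**Figure D2:**
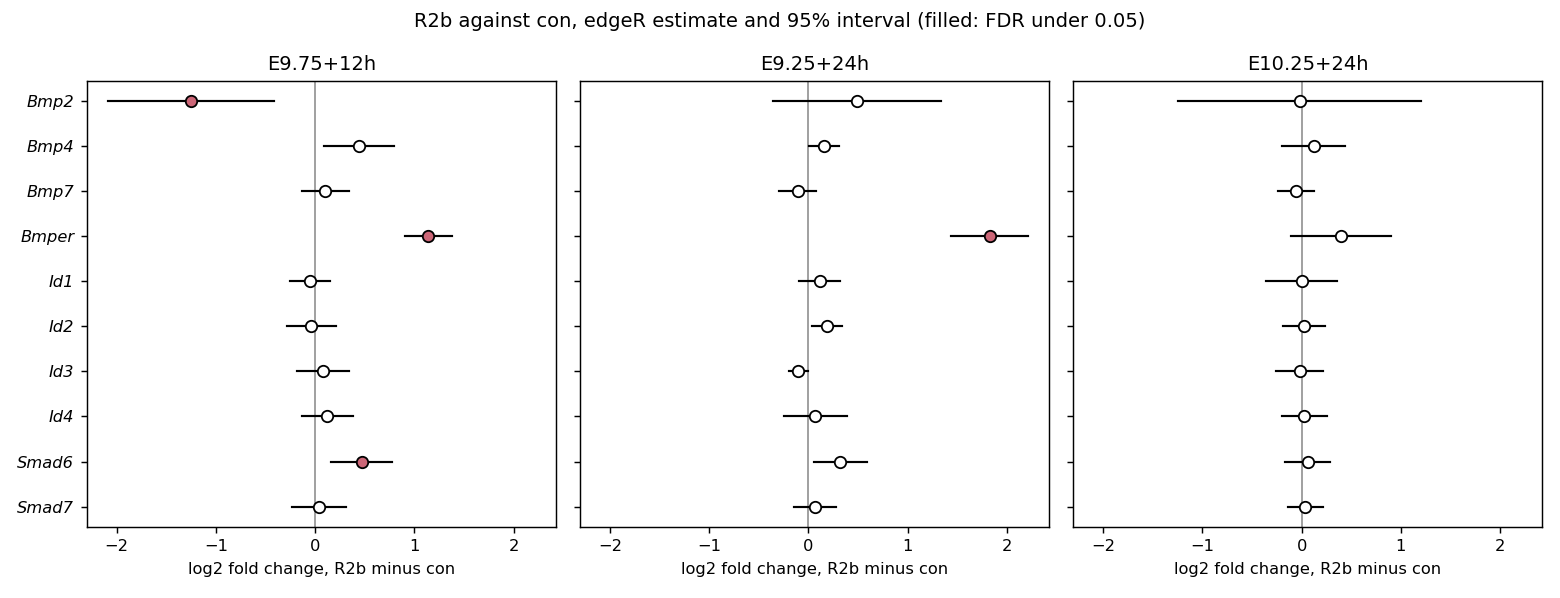
Log2 fold change of R2b against con (horizontal axis) with its 95% interval from edgeR for each member at each exposure, filled where the FDR was under 0.05. Bmper stands apart at the short exposure (1.14) and the long exposure (1.83), and the intervals of Id1, Id4, Bmp7 and Smad7 span 0 at all 3 exposures.

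Of the ligands, Bmp2 was scarce and fell at the short exposure. Bmp2 (ENSMUSG00000027358, chromosome 2, 133552159 to 133562885, plus strand) encodes a ligand close to BMP4 in sequence. After the short exposure its levels in litters 1 to 3 were 2.42, 2.51 and 4.32 CPM in con and 1.87, 1.25 and 0.722 CPM in R2b. All R2b pools lay below all con pools, with the lowest R2b and the highest con both in litter 3. Behind these levels were 46 to 82 counts per con library and 14 to 44 per R2b library. Its log2 fold change was -1.25 (SE 0.38, 95% interval -2.09 to -0.42, edgeR FDR 0.0401), and lower in 3 of 3 litters. The call was lost with the litter block (FDR 0.102) and without litter 1 (-1.77, FDR 0.0750), litter 2 (-1.36, FDR 0.0708) or litter 3 (-0.67, FDR 0.308), and it held in 6 of 19 alternatives. Of the single libraries, only the R2b pool of litter 1 could be left out with the call kept (FDR 0.0439), and the other 5 gave FDR values of 0.0608 to 0.133.

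At the long exposure, Bmp2 had 1.82, 2.28, 2.55 and 2.03 CPM in con and 3.11, 1.46, 5.52 and 2.1 CPM in R2b. The R2b pools spread on both sides of con, and the log2 fold change was 0.49 (SE 0.37, 95% interval -0.35 to 1.34, edgeR FDR 0.405). After the late exposure, Bmp2 had 5.98, 3.43, 4.76 and 6.97 CPM in libraries with the label con and 11.4, 1.41, 5.03 and 2.87 CPM in those with the label R2b. Here too the groups overlapped, and the library labelled R2b of litter 1, where Ighg1 was low, was the highest of the 8. The fold change on the log2 scale was -0.02 with all libraries, -0.69 without litter 1 and -0.74 without the 3 libraries whose Ighg1 goes against their label (edgeR FDR 0.511 and 0.588).

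Bmp4 (ENSMUSG00000021835, chromosome 14, 46383520 to 46390669, minus strand), the ligand of the sensory patches, did not pass the test at any exposure. At the short exposure it had 31.0, 43.2 and 47.3 CPM in con and 62.8, 55.2 and 46.6 CPM in R2b. Litters 1 and 2 were higher in R2b and litter 3 was level, so the groups overlapped. The log2 fold change was 0.44 (SE 0.16, 95% interval 0.08 to 0.79, edgeR FDR 0.0774). Without litter 3 it was 0.66 (FDR 0.0254), and DESeq2 called the full set (FDR 0.0467).

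The long exposure gave Bmp4 levels of 38, 40.2, 41.0 and 39.5 CPM in con and 40.9, 49.0, 45.1 and 42.3 CPM in R2b. R2b was the higher pool in 4 of 4 litters by a small margin, with 1 R2b pool just below the top of con. On the log2 scale the fold change was 0.16 (SE 0.07, 95% interval 0.01 to 0.31, edgeR FDR 0.138), and with the litter block the FDR was 0.0288. At the late exposure, Bmp4 had 53.8, 43.4, 39.7 and 36.3 CPM in libraries with the label con and 40.9, 57.7, 46.5 and 43.7 CPM in those with the label R2b. Litter 1 went against the other three. Bmp4's late log2 fold change was 0.12 with all libraries, 0.31 without litter 1 (edgeR FDR 0.265) and 0.30 without the 3 libraries (FDR 0.435).

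Bmp7 (ENSMUSG00000008999, chromosome 2, 172868012 to 172940321, minus strand) was the most abundant of the 3 ligand genes per kb. Its levels at the short exposure were 151, 169 and 162 CPM in con and 184, 148 and 186 CPM in R2b, with overlap. In long-exposure pools they were 137, 138, 155 and 116 CPM in con and 124, 129, 133 and 120 CPM in R2b, a range inside that of con. The log2 fold changes were 0.10 (95% interval -0.14 to 0.34), -0.11 (-0.29 to 0.08) and -0.06 (-0.23 to 0.12) at the short, long and late exposures, and none passed the test. These intervals hold changes of up to 1.27-fold upward and 0.817-fold downward. The late value was -0.12 both without litter 1 and without the 3 libraries.

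Bmper (ENSMUSG00000031963, chromosome 9, 23223076 to 23485200, plus strand) had the largest rise of the members. In short-exposure pools it stood at 56.2, 45.8 and 54.7 CPM in con and at 112, 112 and 121 CPM in R2b. Every R2b pool was far above every con pool, and the pools of each genotype lay close together. The fold was 2.20 (log2 1.14, SE 0.11, 95% interval 0.91 to 1.37, edgeR FDR 3.35e-04), and higher in 3 of 3 litters.

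After the long exposure, Bmper was at 60.2, 66.0, 44.5 and 40.3 CPM in con and at 191, 220, 185 and 152 CPM in R2b. The lowest R2b pool was far above the highest con pool, and the 2 lowest con pools, of litters 3 and 4, had the 2 lowest R2b partners. The fold was 3.55 (log2 1.83, SE 0.17, 95% interval 1.44 to 2.21, edgeR FDR 7.68e-04). Litter by litter the log2 differences were 1.67, 1.74, 2.05 and 1.91, against 1.0, 1.29 and 1.14 at the short exposure, and the ranges of the 2 exposures do not overlap. The test of the difference between these effects over all 22 libraries gave 0.70 (SE 0.29, edgeR FDR 0.339), which did not pass. The call of Bmper held in all 19 alternatives at the short exposure (log2 1.05 to 1.21) and all 23 at the long exposure (1.72 to 1.96).

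In late-exposure pools, Bmper had 133, 78.2, 75.3 and 92.8 CPM in libraries with the label con and 96.7, 169, 101 and 133 CPM in those with the label R2b. Litter 1 ran opposite to its labels, as its Ighg1 did, while litters 2, 3 and 4 had log2 differences of 1.11, 0.43 and 0.52. The log2 fold change over all 8 libraries was 0.40 (SE 0.22, 95% interval -0.11 to 0.90). Without litter 1 it was 0.71 (SE 0.18, edgeR FDR 0.152), and with the litter block and without litter 1 it was 0.69 (SE 0.13, edgeR FDR 0.0407). Without the 3 libraries whose Ighg1 goes against their label it was 0.65 (edgeR FDR 0.314). None of 15203 genes was called in this exposure (0%), by edgeR or DESeq2, and 175 had an unadjusted edgeR p under 0.05.

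**Figure D3:**
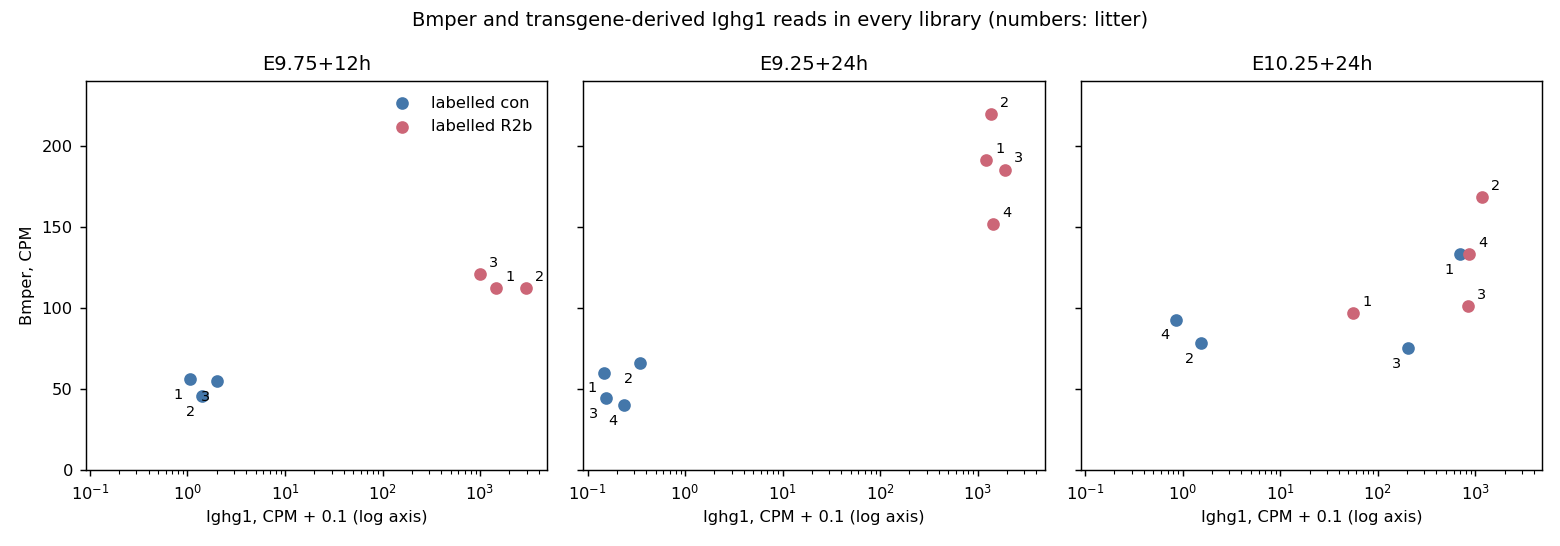
Bmper (vertical axis, CPM) against Ighg1 (horizontal log axis, CPM plus 0.1) in each library of the 3 exposures, with the litter number beside each point and con in blue, R2b in red. At the short and long exposures the libraries form separate low and high groups on both axes, and at the late exposure the library labelled con of litter 1 (Bmper 133 CPM) lies among those labelled R2b.

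The effects on the other members were also compared between exposures. For the long exposure against the short exposure, Bmp2 differed by 1.77 (SE 0.76, edgeR FDR 0.364) and the remaining 8 members had FDR values of 0.506 to 0.954. For the late exposure against the long exposure, Bmper differed by -1.43 (SE 0.27, edgeR FDR 0.0626) and the rest had FDR values of at least 0.742. In both contrasts 0% of 15688 genes were called by edgeR, while 1908 and 1344 had an unadjusted p under 0.05. DESeq2 called Bmper in the second contrast, as did edgeR without litter 2 of the late exposure. These libraries include those whose Ighg1 goes against their label.

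The 4 Id genes encode inhibitors that pair with E proteins and keep them from DNA, and they are among the genes that respond to BMP signalling. Their summed level was 465 ± 23.5 CPM in con and 464 ± 24.6 CPM in R2b after the short exposure (SD, n = 3). After the long exposure it was 595 ± 30.0 in con and 624 ± 35 in R2b (SD, n = 4), and at the late exposure 582 ± 56.6 and 584 ± 67.9 CPM in libraries with the label con and R2b (SD, n = 4). In each exposure the means differed by less than 1 SD. Within litters, however, the sum was higher in R2b in 4 of 4 litters at the long exposure, going from 585 to 593, 559 to 596, 608 to 663 and 629 to 643 CPM. R2b was higher in 2 of 3 litters at the short exposure and in 3 of 4 by label at the late one, and the sum itself was not tested.

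Id1 (ENSMUSG00000042745, chromosome 2, 152736251 to 152737410, plus strand) stood at 75.9, 79.7 and 75.3 CPM in con and 73.1, 76.3 and 73.4 CPM in R2b after the short exposure. The pools of both genotypes were within a few CPM of each other and overlapped. Its log2 fold change was -0.05 (95% interval -0.25 to 0.15, edgeR FDR 0.725). At the long exposure the levels were 117, 109, 127 and 142 CPM in con and 126, 122, 148 and 139 CPM in R2b, with R2b higher in 3 of 4 litters. The log2 fold change there was 0.11 (95% interval -0.09 to 0.32, edgeR FDR 0.430). The intervals of Id1 thus hold rises of up to 1.11-fold and 1.25-fold, well below the folds of Bmper.

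Id2 (ENSMUSG00000020644, chromosome 12, 25093799 to 25097140, minus strand) had 262, 222 and 269 CPM in con and 228, 277 and 226 CPM in R2b after the short exposure, in mixed order. In long-exposure pools it had 232, 213, 240 and 250 CPM in con and 253, 244, 282 and 284 CPM in R2b. R2b was higher in 4 of 4 litters, while the lowest R2b pool stayed below the highest con pool. The log2 fold change at the long exposure was 0.19 (SE 0.07, 95% interval 0.03 to 0.34, edgeR FDR 0.0949), and with the litter block the FDR was 0.00117.

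Id3 (ENSMUSG00000007872, chromosome 4, 136143497 to 136145755, plus strand) ran the other way at the same exposure. Its levels at the long exposure were 212, 215, 218 and 221 CPM in con and 191, 207, 210 and 201 CPM in R2b, with all R2b pools below all con pools. The log2 fold change was -0.10 (SE 0.04, 95% interval -0.20 to -0.01, edgeR FDR 0.133), and with the litter block the FDR was 0.0298. Of 23 alternatives, only this 1 called Id3. After the short exposure, Id3 had 91.0, 104 and 109 CPM in con and 123, 93.3 and 105 CPM in R2b, with overlap (log2 fold change 0.08, edgeR FDR 0.665).

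Id4 (ENSMUSG00000021379, chromosome 13, 48261228 to 48266026, plus strand) was the least abundant Id gene per kb. It had 35.6, 35.7 and 34.3 CPM in con and 41.9, 39.7 and 33.4 CPM in R2b after the short exposure (log2 fold change 0.12, edgeR FDR 0.482). After the long exposure the levels were 24.3, 21.9, 22.8 and 15.1 CPM in con and 22.3, 22.6, 23.2 and 19.9 CPM in R2b, with both minima in litter 4 (log2 fold change 0.07, edgeR FDR 0.782). After the late exposure none of the 4 Id genes had a log2 fold change beyond 0.03 in size with all libraries. Without litter 1 the values of Id1, Id2, Id3 and Id4 were -0.12, 0.05, -0.07 and 0.16, and without the 3 libraries -0.16, 0.01, -0.14 and 0.11, with edgeR FDR values of 0.431 to 0.984.

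Smad6 (ENSMUSG00000036867, chromosome 9, 63953076 to 64022059, minus strand) encodes an inhibitory SMAD that acts mainly on BMP receptors. At the short exposure it had 22.7, 19.1 and 26.1 CPM in con and 33.3, 28.3 and 32.6 CPM in R2b. All R2b pools lay above all con pools. On the log2 scale the fold change was 0.47 (SE 0.14, 95% interval 0.16 to 0.78, edgeR FDR 0.0374), a fold of 1.39, and higher in 3 of 3 litters. The call was lost with the litter block (FDR 0.0572), without litter 1 (0.42, FDR 0.287) and without litter 3 (0.55, FDR 0.0602), held without litter 2 (0.42, FDR 0.0416), and held in 9 of 19 alternatives in all. It was also lost without the con pool of litter 1 or 2 or the R2b pool of litter 1 or 3 (FDR 0.106 to 0.143).

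At the long exposure, Smad6 had 30.8, 28.4, 23.4 and 23.5 CPM in con and 31.3, 39.0, 31.3 and 30.9 CPM in R2b. The groups again did not overlap, though the lowest R2b pool and the highest con pool were nearly level. Its log2 fold change was 0.32 (SE 0.12, 95% interval 0.05 to 0.59, edgeR FDR 0.0967), and with the litter block the FDR was 0.00716. At the late exposure the levels were 44.0, 35.8, 35.6 and 37.0 CPM in libraries with the label con and 39.7, 45.2, 39.8 and 34.1 CPM in those with the label R2b, in mixed order (0.06, 95% interval -0.17 to 0.29). Without litter 1 the log2 fold change of Smad6 was 0.14 and without the 3 libraries 0.12 (edgeR FDR 0.548 and 0.714).

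Smad7 (ENSMUSG00000025880) encodes the inhibitory SMAD that acts on both BMP and TGF-beta receptors. It had 22.5, 24.7 and 23.1 CPM in con and 24.4, 22.1 and 25.7 CPM in R2b after the short exposure. In long-exposure pools it had 24.7, 23.2, 19.7 and 24.0 CPM in con and 23.9, 25.3, 21.2 and 25.3 CPM in R2b. The groups overlapped at both, with log2 fold changes of 0.04 (95% interval -0.23 to 0.31) and 0.06 (-0.15 to 0.27). The late value was 0.04 with all libraries, 0.10 without litter 1 and 0.06 without the 3 libraries. Smad6 and Smad7 thus differed in their calls at the short exposure, and the difference between the genes was not tested.

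Between libraries of the same group, members also varied in pairs. After group means were removed, 38 of 45 pairs had a Pearson r of log2 CPM between -0.5 and 0.5 over 22 libraries. The 4 pairs at 0.5 or above were Bmper with Smad6 (0.68), Id1 with Id3 (0.65), Id1 with Id2 (0.61) and Bmper with Id4 (0.59). The 3 at -0.5 or below were Id1 with Id4 (-0.59), Bmp2 with Smad7 (-0.58) and Bmp7 with Id2 (-0.56). Within the short, long and late exposures, Bmper with Smad6 had r of 0.75, 0.86 and 0.62, while Id1 with Id3 had -0.38, 0.49 and 0.95. These points share litters, libraries and scaling factors, the labels of the late exposure feed into its group means, and the values are descriptions only.

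**Figure D4:**
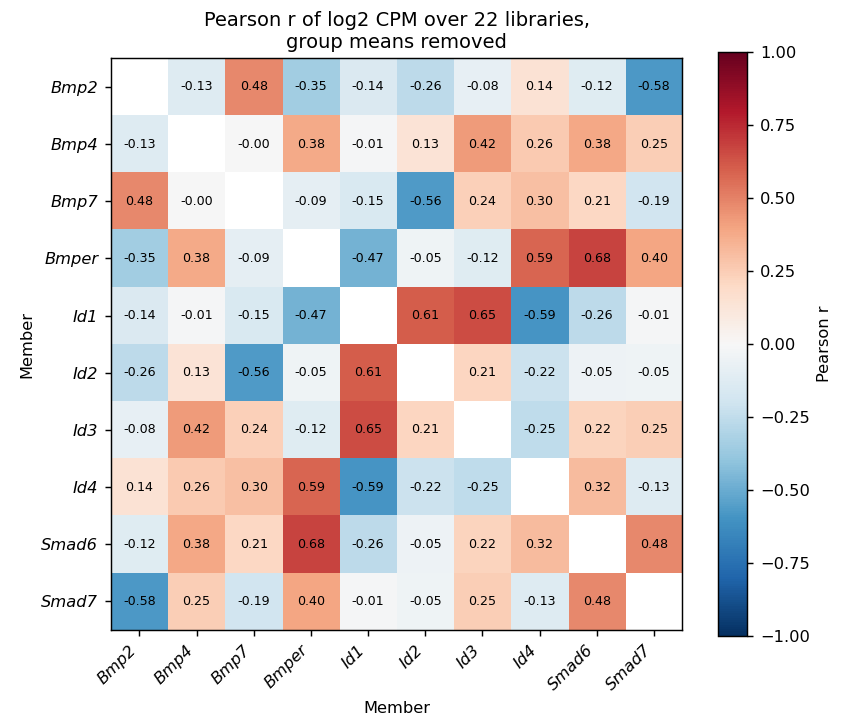
Pearson r of log2 CPM for each pair of the 10 members (both axes) over 22 libraries after group means were removed, coloured from -1 (blue) to 1 (red) with the value printed. The strongest positive cell is Bmper with Smad6 (0.68), and no block of ligands, modulator and targets with high r throughout is seen.

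The level of epithelial markers moved with some members. Over the same group-centred libraries, the summed level of the 12 otic epithelium markers had r of -0.83 with Id1, -0.68 with Id2, 0.61 with Id4 and 0.58 with Bmper. This sum was led by Oc90, a secreted otoconial protein, which made up 23.5% to 66.8% of it. Its range at the short exposure was 3493 to 3900 CPM in con and 3917 to 4716 CPM in R2b, without overlap, and so was higher in R2b, as Bmper was. After the long exposure it was 2321 to 3732 CPM in con and 3315 to 5319 CPM in R2b. Mesenchyme ranged from 114 to 407 CPM in con and 205 to 391 CPM in R2b after the short exposure, and endothelium from 17.7 to 64.1 and 21.7 to 45.2 CPM. All 12 mesenchyme markers were above 0 in every library. Id4 had r of -0.69 with the endothelial sum and -0.66 with the mesenchymal sum. The part of cell content in the members' results was not tested.

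The genes whose profile came nearest to a member's were sought over 12807 genes and 22 libraries after each exposure's mean was removed. For Bmper they were Tcn2 (r = 0.98), 2900011O08Rik (0.98) and Prnp (0.98). For Bmp4 they were Ppcs (0.86), Phf13 (0.84) and Uqcc3 (0.82), and for Id1 they included Naa38 (0.84) and Crabp1 (0.81). The likeness of Bmper's neighbours includes the difference between genotypes.

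The rest of the pathway was read from 8 lists of 82 genes, of which 68 were in the table and tested. In short-exposure pools, 12 of the 68 were higher and 2 lower in R2b, and 54 were not called, and with the litter block 9 were called. The 14 calls are near the 20% called among all genes, and the 9 near the 11.9% called with the block. At the long exposure, 8 were higher and 9 lower, and 51 were not called, and with the litter block 34 were called, beside 15.6% and 40.6% of all genes. In late-exposure pools edgeR called 0 of 68, and none had an unadjusted p under 0.05.

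**Figure D5:**
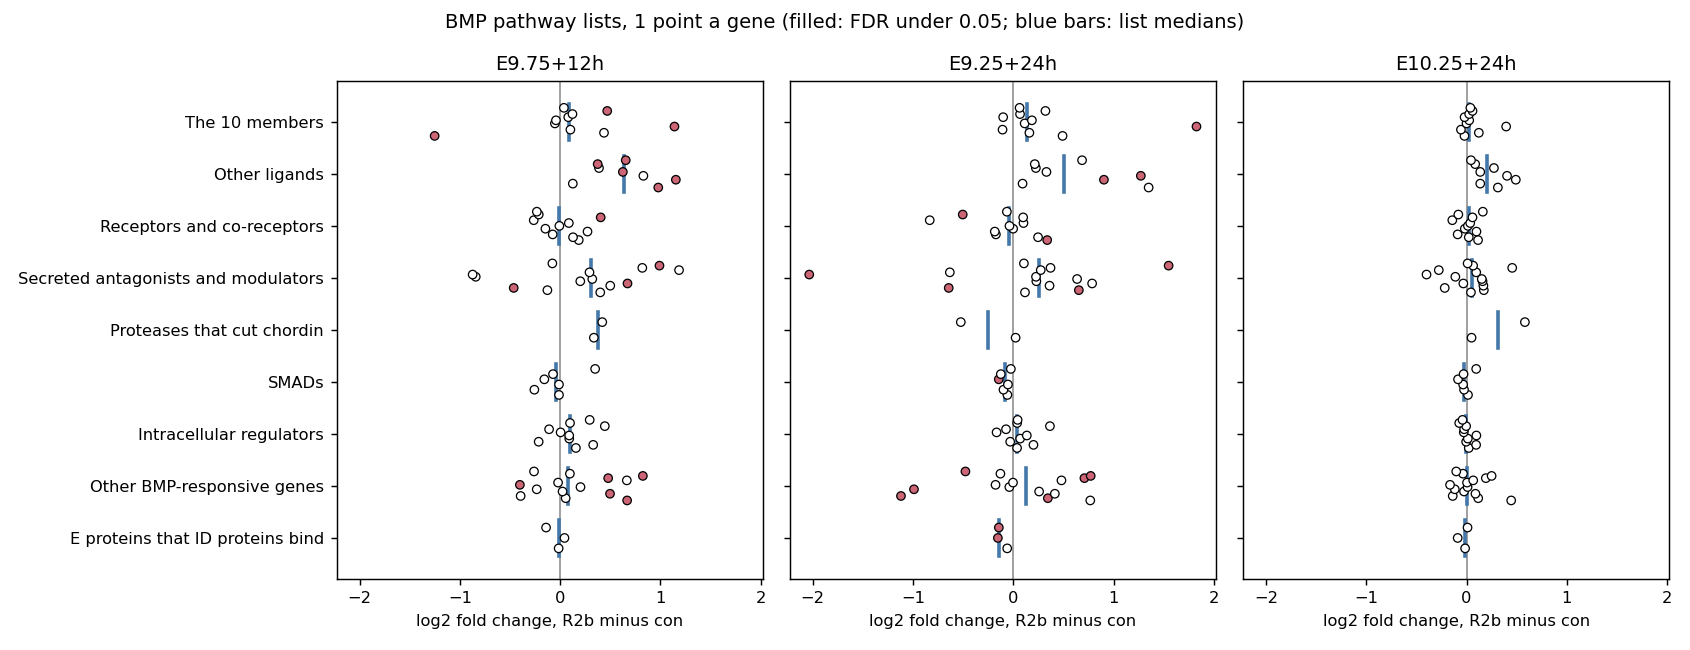
Log2 fold change of R2b against con (horizontal axis) for each tested gene of the members and of 8 further pathway lists (rows) at the 3 exposures, filled where the FDR was under 0.05, with a blue bar at each list's median. The other ligands lie to the right of 0 at all 3 exposures (medians 0.64, 0.51 and 0.21), and the medians of receptors, SMADs and E proteins lie close to 0, with single receptor genes between -0.83 and 0.41.

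Of 8 other ligand genes tested, 5 rose at the short exposure and none fell, beside 10.20% of all genes called higher. All 8 had log2 fold changes above 0, with a median of 0.64, as did 7644 of the 14882 genes tested, whose median was 0.01. Bmp3, which encodes a BMP family member that can antagonise others, rose from 23.0 ± 7.45 to 45.3 ± 2.43 CPM (SD, n = 3, log2 0.98, edgeR FDR 0.0066). Gdf6, a ligand of the same family, rose from 20.9 ± 2.32 to 32.8 ± 4.91 CPM (log2 0.65, FDR 0.0103). Bmp6 (1.15, FDR 0.0204), Bmp8b (0.63, FDR 0.0223) and Gdf11 (0.38, FDR 0.0255) made up the rest, and these lost their calls with the litter block (FDR 0.0531, 0.0679 and 0.0721). In long-exposure pools, Bmp8a (1.27, FDR 0.0311) and Bmp6 (0.90, FDR 0.0461) rose, beside 9.09% of all genes called higher, with 8 of 8 above 0 and a median of 0.51. With the litter block 5 of the 8 were called, beside 40.6% of all genes, as Bmp3, Gdf6 and Gdf11 joined them (FDR 2.18e-06, 9.76e-04 and 5.50e-04). After the late exposure, 8 of 8 were again above 0, with a median of 0.21 and no call. Of all genes tested, 7230 of 14979 were above 0 at the long exposure and 7688 of 15203 at the late one. The comparisons of an exposure share no library with those of another, but the list was chosen with earlier results of these data known. The late tally also uses labels that Ighg1 goes against in part.

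Receptor genes had few calls. Of 11 tested, Rgma, which encodes a BMP co-receptor, rose at the short exposure (0.41, edgeR FDR 0.0205). After the long exposure, Acvr1, a type I BMP receptor gene, rose (0.34, FDR 0.0138), and Rgmb, another co-receptor gene, fell (-0.50, FDR 0.0194). The median over the list was -0.01 and -0.04, and log2 fold changes ran from -0.26 to 0.41 and from -0.83 to 0.34. With the litter block 4 were called at the long exposure, Acvr2a (0.25, FDR 0.00555) and Acvr2b (-0.17, FDR 0.0166) beside Acvr1 and Rgmb. Of all genes, 20% and 15.6% were called at the short and long exposures without the block, and 40.6% at the long exposure with it. The main BMP receptor genes Bmpr1a, Bmpr1b and Bmpr2 had log2 fold changes of -0.15, -0.01 and 0.09 at the short exposure and of 0.00, -0.04 and 0.10 at the long exposure, none past the test.

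Secreted antagonists went both ways. Sostdc1, which encodes a BMP antagonist also known as ectodin or wise, rose from 9.74 ± 2.30 to 19.4 ± 4.04 CPM at the short exposure (SD, n = 3, log2 0.99, edgeR FDR 0.0073). It rose from 5.59 ± 1.15 to 16.4 ± 1.73 CPM at the long exposure (SD, n = 4, log2 1.55, edgeR FDR 0.00101), the only gene of that list called higher at both exposures. Crim1, which encodes a membrane-bound BMP-binding protein, fell at both, by 0.46 (FDR 0.0196) and 0.64 (FDR 0.0161) on the log2 scale. The fall at the short exposure lost its call with the litter block (FDR 0.0552). Fst, the gene of the activin and BMP inhibitor follistatin, rose at the short exposure (0.67, FDR 0.0157). At the long exposure, Chrdl1, a chordin-like antagonist gene, rose (0.65, FDR 0.0361). The list's median was 0.31 and 0.25 over 14 tested genes. With the litter block 2 and 8 of them were called, beside 11.9% and 40.6% of all genes. The genes of noggin (Nog) and chordin (Chrd) did not pass the test, with log2 fold changes of 0.82 and 0.40 at the short exposure and 0.37 and 0.12 at the long exposure.

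Signal transducer genes had few calls. Of all genes tested, 20% and 15.6% were called at the short and long exposures without the block. By the same edgeR tests, 5216 of 14882 and 4829 of 14979 genes had an unadjusted p under 0.05. None of the 6 SMAD genes of the list was called by edgeR at the short exposure, where 2 had an unadjusted p under 0.05, and Smad4, the shared partner SMAD, fell by 0.14 on the log2 scale at the long exposure (FDR 0.0414). The 10 intracellular regulators had no call by edgeR at either exposure, with 3 and 1 at an unadjusted p under 0.05. With the litter block, which called 40.6% of all genes at the long exposure, 3 of them were called there. These were Tob1 (0.37, FDR 6.05e-04), Smurf1 (-0.17, FDR 0.00724) and Skil (0.13, FDR 0.0241), and Smad5 joined Smad4 among the SMAD genes (-0.12, FDR 0.0146). The 2 chordin proteases tested had none either, while 1 and 0 had an unadjusted p under 0.05. Of the 3 genes for E proteins, the partners of the ID proteins, Tcf3 (-0.15, FDR 0.0478) and Tcf4 (-0.14, FDR 0.0407) fell at the long exposure, beside 6.5% of all genes called lower. At the short exposure 0 were called or had an unadjusted p under 0.05.

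Other genes known to respond to BMP, all transcription factor genes but Bambi, moved in both directions. After the short exposure, 4 of 14 rose and 1 fell, beside 10.20% of all genes called higher and 9.78% called lower. The list's median was 0.08. Msx2, a homeobox gene and a common BMP readout, went from 72.0 ± 7.79 to 128 ± 9.11 CPM (SD, n = 3, log2 0.83, edgeR FDR 8.91e-04). Msx1 (0.48, FDR 0.0228), Dlx5 (0.50, FDR 0.0094) and Atoh8 (0.67, FDR 0.0234) rose too. Hes1, also a Notch target, fell by 0.40 (FDR 0.0459) and lost its call with the litter block (FDR 0.114).

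In long-exposure pools, 3 of the 14 BMP-responsive genes rose and 3 fell, beside 9.09% of all genes called higher and 6.5% called lower. The list's median was 0.13. With the litter block 10 were called, 7 higher and 3 lower, beside 40.6% of all genes called in either direction. Dlx5 (0.41, FDR 4.91e-04), Dlx6 (0.26, FDR 0.00388), Atoh8 (0.77, FDR 0.00287) and Junb (0.48, FDR 0.0405) joined the rises. Msx2 went from 38.6 ± 6.66 to 66.0 ± 10.29 CPM (SD, n = 4, log2 0.77, edgeR FDR 0.0128) and Msx1 from 38.1 ± 9.89 to 62.4 ± 7.49 CPM (log2 0.71, FDR 0.0249). Bambi, which encodes a decoy receptor, rose by 0.34 (FDR 0.0217). Dlx3 went from 13.1 ± 3.20 to 6.03 ± 1.13 CPM (log2 -1.12, FDR 0.0119), Gata2 from 57.0 ± 17.9 to 28.7 ± 8.21 CPM (log2 -0.99, FDR 0.0351) and Tbx3 from 107 ± 16.4 to 76.8 ± 9.76 CPM (log2 -0.48, FDR 0.0330). The homeobox genes Msx1 and Msx2 were thus higher, and Dlx3 and the factors Gata2 and Tbx3 lower, in these pools. In the same pools the summed Id level, which was not tested, was slightly higher in 4 of 4 litters, while Id3 within it was lower in 4 of 4.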

How the data were processed

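RNA from pooled mouse otocyst epithelium was sequenced as stranded poly(A) libraries, per the labels' protocols. Values in the deposited table are raw counts, 1 row a gene. Novoalign 2.08.03 and the build mm10 are named in the submitters' processing notes, and the counting tool is not given in the sources used here. Symbols came from GENCODE M21 (15522 of 15736 genes matched, 214 did not). Of the table's columns, 22 matched a sample, and 2 that named no sample were not used, which leaves 3 litters at the short exposure where 4 had been planned for.

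Tests used edgeR 4.0.16 under R 4.3.3 (filterByExpr, TMM, estimateDisp, glmQLFit, glmQLFTest), each exposure fitted alone with 2 group means, a gene being called at an FDR under 0.05 over all genes tested. SEs were taken from the F statistic, and the prior count was 0.125 for fitted fold changes and 2 for log2 CPM. The difference of effects used 6 group means over 22 libraries. The procedure was tested on simulated data. The members and lists were chosen with earlier results of these data known. The genes named are the 10 members, Fgfr2 and Ighg1, the 3 genes nearest in pattern to Bmper, Bmp4 and Id1, and, per list and exposure, up to 4 called genes with the smallest FDR. Names outside this rule (Bmpr1a, Bmpr1b, Bmpr2, Nog, Chrd, genes called with the litter block alone and the markers) were chosen for their role or after values were seen. Some genes that the rule names are not reported here.

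Per the labels, con and R2b pools were taken from the same females, so litters pair. Same-litter r of deviations from group means was -0.17, -0.31 and -0.29 at the short exposure, 0.52, 0.61, 0.83 and 0.81 at the long exposure, and -0.17, 0.44, 0.39 and 0.26 at the late exposure. No 2 libraries of a group were duplicates (chi-square per degree of freedom 5.48 to 44.2 over 30 pairs). Reads carry no molecular identifiers, so counting error is the least error a level can have. Alternatives were median-of-ratios size factors, other filters, the litter block, robust dispersion, 1 fit of all libraries, DESeq2 1.42.0 and litters or libraries left out. Leaving out the 3 libraries with unexpected Ighg1 was added after the data were seen.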

Additional observations from a re-analysis of the deposited data

Results flagged for a closer look

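Of 40 sets of 4 libraries (10 members, con and R2b, at the long and late exposures), 1 held a library far from the rest by Dixon's criterion, and chance alone flags about 1 in 20. It was Smad6 in the R2b pool of litter 2 at the long exposure, at 39.0 CPM where the other R2b pools had 30.9 to 31.3 CPM. The gap was 0.942 of the group's range, above Dixon's 95% critical value for 4 samples. The con pool of that litter had 28.4 CPM, within the con range.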

How the results depend on the processing

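With 3 or 4 litters a group, small shifts sat near the threshold, and Bmp2, the member with the fewest counts, was the least precise. Of 660 member values under alternatives, 19 newly passed the threshold, 23 no longer did, and the others (608 under planned and 10 under added alternatives) kept their side of it; 62 changed sign, all among values called in neither fit. Where a count moved, the cause was not tested.

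The count of members called (3, 1 and 0 at the short, long and late exposures) became 1, 5 and 0 with the litter block. With the block and without 1 litter it was 1, 1 and 2 at the short exposure (litters 1 to 3), 3, 3, 3 and 6 at the long exposure (litters 1 to 4), and 1 at the late exposure without litter 1. Leaving out litters or libraries without the block gave 1 to 2 at the short exposure and 1 at the long exposure. Of all genes, 2973, 2335 and 0 were called. In short-exposure pools this became 4560 in 1 fit of all libraries, 1775 with the block, and 267, 3151 and 1595 with the block and without litters 1 to 3; leaving out litters or libraries alone gave 434 to 4583. In long-exposure pools it became 6086 with the block and 4715, 4450, 4602 and 6161 with the block and without litters 1 to 4; leaving out alone gave 322 to 2289. In late-exposure pools it was 614 with the block and without litter 1, and 3 without the 3 libraries of unexpected Ighg1. In the difference between the late exposure and the long exposure, 0 members became 1 under DESeq2, and leaving out litters gave 0 to 1. In the difference between the long exposure and the short exposure, the count stayed at 0 throughout. With all litters in the fit, the block changed no member's call beyond those given above. At the long exposure, the 6 members called with the block and without litter 4 included Bmp7 (lower, edgeR FDR 0.00848) and Id1 (higher, edgeR FDR 0.00477).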
